A study of Arabidopsis thaliana with 2 samples.

Results

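The cytokinin type-A response regulators of Arabidopsis thaliana are a family of 10 genes, ARR3 to ARR9 and ARR15 to ARR17, here taken by their locus tags from 27444 protein-coding genes on the 5 nuclear chromosomes. Each was described by the peaks of TGA1-GFP, a bZIP transcription factor fused to green fluorescent protein, that overlapped the gene or 3000 bp on either side of it (its window below). The peaks came from chromatin immunoprecipitation with sequencing (ChIP-seq) of formaldehyde cross-linked roots of TGA1-GFP plants. The TGA1-GFP plants gave 1 library with a GFP antibody and 1 with IgG, the background antibody. No plants without the fusion were analysed here, and the labels do not state the promoter that drives it, nor the age or nitrogen supply of the plants. The values were 1 list of 8002 peaks with chromosome, start and end, without replicate, height or p-value.

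Cytokinin is sensed by histidine kinase receptors, which pass a phosphate through histidine phosphotransfer proteins (AHP) to response regulators in the nucleus. The type-B regulators are transcription factors, and the type-A genes are among their direct targets. Type-A proteins carry the phosphate-receiving domain without a DNA-binding domain and dampen the signal that induced them. In roots, nitrate supply raises cytokinin synthesis, and cytokinin restrains the meristem and the formation of lateral roots. The members form the paralogue pairs ARR3 and ARR4, ARR5 and ARR6, ARR7 and ARR15, ARR8 and ARR9, and ARR16 and ARR17.

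TGA1-GFP peaks lay at 7 of the 10 type-A genes: ARR4, ARR5, ARR6, ARR7, ARR8, ARR9 and ARR17. ARR3, ARR15 and ARR16 had none. The 7 genes are 70% of the family (95% Wilson interval 39.7 to 89.2%, which covers counting of genes only), against 40.5% of all protein-coding genes. The interval includes this 40.5%. Together the windows held 16 different peaks. There were 4 each at ARR4 and ARR6, 3 at ARR8, 2 at ARR9 and 1 each at ARR5, ARR7 and ARR17. The mean was 1.6 peaks per window, against 0.65 over all protein-coding genes. There were 3 members with 3 or more peaks, against 5.79% of all genes, and 2 with 4, where 1.65% of all genes had 4 or more. No test was made of these differences, since the family was chosen with results of the same list known. The count of 7 stayed at 7 with flanks of 1000, 2000 or 5000 bp, for which the share of all genes was 26.7, 33.6 and 51.8%.

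**Figure D1:**
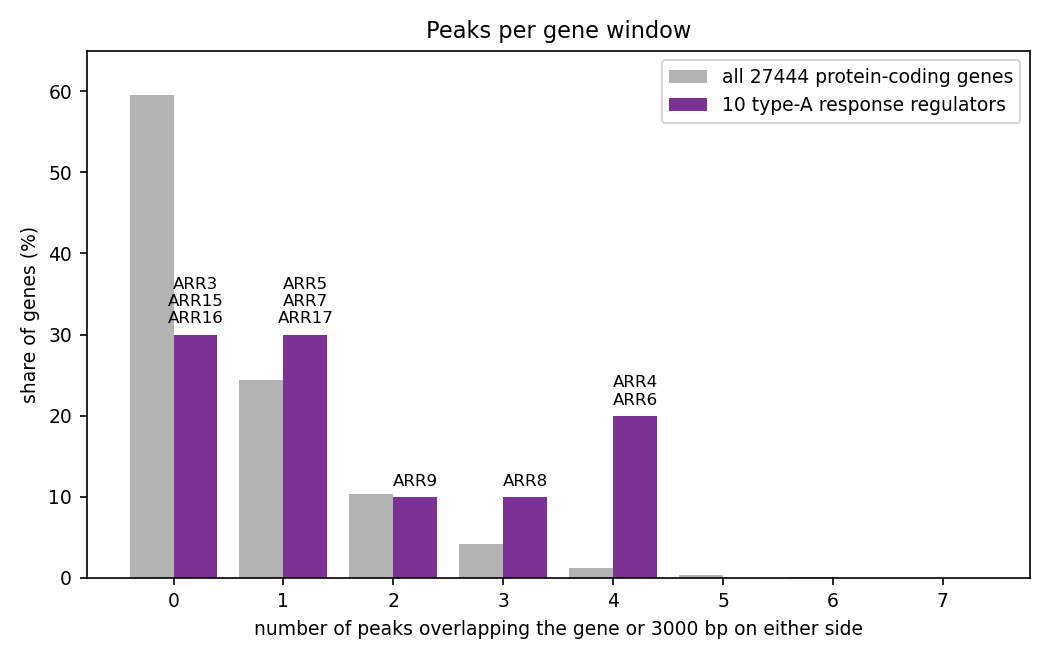
Share of genes (%) by the number of peaks overlapping the gene or 3000 bp on either side, for all 27444 protein-coding genes (grey) and the 10 type-A response regulators (purple, named above the bars). The members without a peak are 3 of 10 where 59.5% of all genes have none, and ARR4 and ARR6 stand at 4 peaks.

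At 6 of the 10 members, 60%, a peak ran across an annotated end of the gene, all 6 among the 7 marked genes. This was so for ARR4, ARR5, ARR6, ARR7, ARR8 and ARR9, against 12.7% of all protein-coding genes. Over all genes, 3475 had such a peak, where 11126 had a peak in the window. The same 6 members were those with a peak overlapping the gene body, against 14.9% of all genes. A peak across an end overlaps the gene body by definition, so this is not a separate result. The gene table gives no strand, so the ends are called low and high by their coordinate, and which end holds the transcription start was not determined. The high end was covered at ARR4, ARR5, ARR6 and ARR7 and the low end at ARR8 and ARR9, and no member had a peak across both ends (1.27% of all genes did). These peaks lay mostly outside the gene, with a median of 103 bp inside and 411.5 bp outside, against medians of 157 and 301 bp for the same kind of peak at all genes. In all 6 genes the covered end faced the longer of the gene-free flanks, the stretches up to the next protein-coding gene, as it did in 67.2% of the 3111 genes with a peak across 1 end and flanks of unequal length. The feature was noticed in these peaks and then counted. With only the 3996 peaks wider than the median it was left at ARR4, ARR6 and ARR7 (3 genes, 7.20% of all genes), and with only the first 4001 peaks of the list at ARR4, ARR7 and ARR9 (3 genes, 7.42%).

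**Figure D2:**
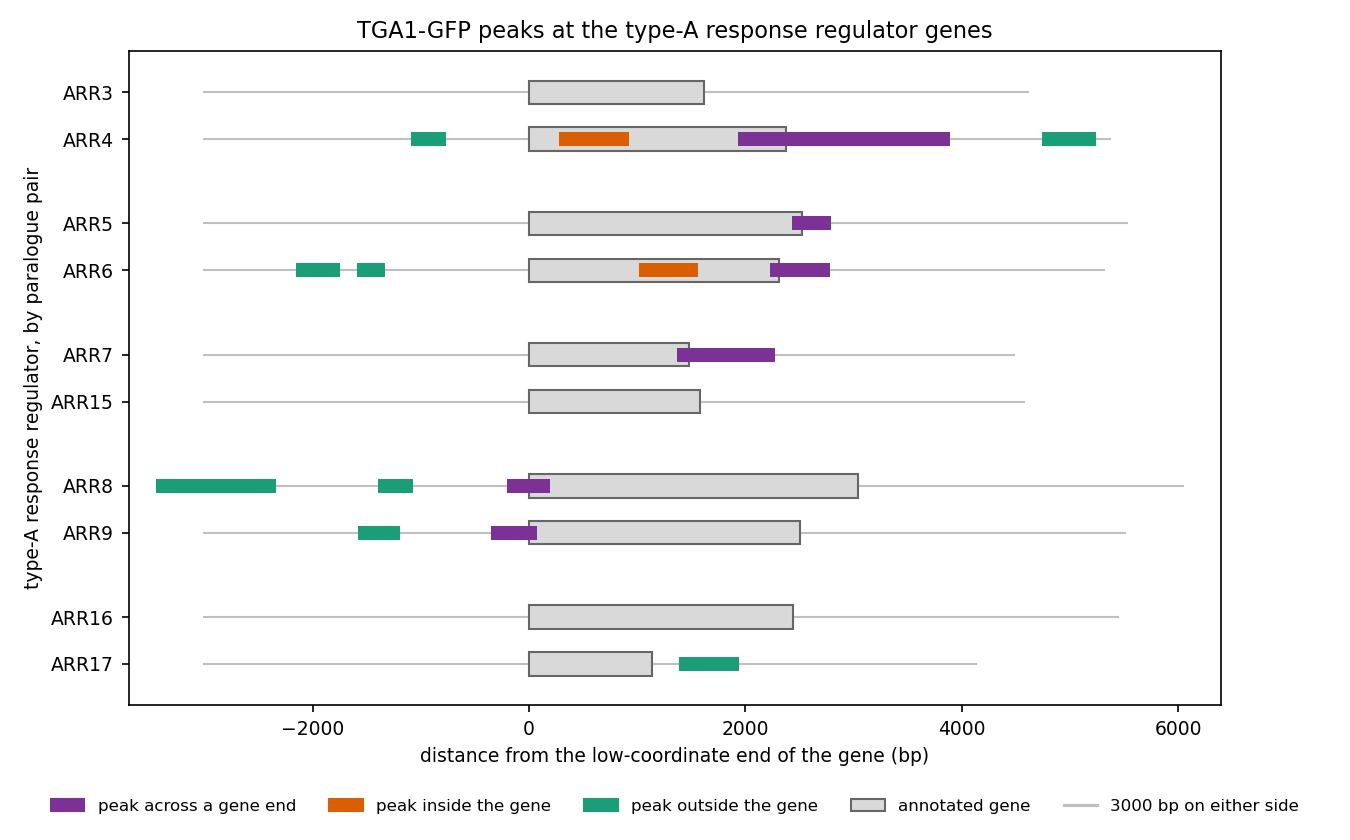
Peaks at each type-A gene, drawn to scale as distance from the low-coordinate end of the gene (bp), with paralogues on adjacent rows; grey boxes are the annotated genes and lines the 3000 bp on either side. Peaks across an end (purple) are seen at ARR4 to ARR9, at the high end in ARR4 to ARR7 and at the low end in ARR8 and ARR9, and the rows of ARR3, ARR15 and ARR16 are empty.

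ARR3 and ARR4 were the most unequal pair in bases covered by peaks. ARR4 (AT1G10470), which binds the light receptor phytochrome B and, with ARR3, affects the period of the circadian clock, had the widest peak of the family. It was 1963 bp wide and at place 422 of the list (chromosome 1, 3443921 to 3445883, TAIR10), and only 0.937% of all peaks were wider. It covered 440 bp of the gene at its high end and 1523 bp beyond. A narrower peak of 646 bp lay wholly inside the gene (3442264 to 3442909), at place 6506. On the other side, a peak of 321 bp lay 766 bp from the low end, nearer to GLP7 (AT1G10460). The last, of 500 bp, lay 2372 bp beyond the high end, 2336 bp from ZFP5 (AT1G10480). Peaks covered 3430 bp of the ARR4 window, 41% of it, and 99.8% of protein-coding genes had less. A wider peak of 2376 bp at place 340, which overlapped ZFP5, began 3015 bp from ARR4 and so fell just outside the window. The gene-free flank between ARR4 and ZFP5 was 5206 bp long.

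ARR3 (AT1G59940), its paralogue, had no peak in its window. The nearest one lay 6009 bp away on the high side. It was 256 bp wide, at place 7255, and overlapped AT1G59960 and AT1G59970. ARR3 also lay in a stretch with fewer peaks than any other member: 35 peaks within 500 kb on either side, against 71 to 114 for the other 9. The same stretch held 228 protein-coding genes, against 291 around ARR4. The part of this surrounding in the difference between ARR3 and ARR4 was not tested.

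ARR5 and ARR6 both had a peak across the high end, with nearly the same inner edge. ARR5 (AT3G48100), whose promoter is widely used to report cytokinin response, had a single peak of 362 bp (chromosome 3, 17760857 to 17761218), with 94 bp inside the gene and 268 bp outside. It stood late in the list, at place 7594, so that 94.9% of peaks came before it. ARR6 (AT5G62920) had a 555 bp peak across its high end (chromosome 5, 25254235 to 25254789), with 84 bp inside and 471 bp outside, at place 4078. ARR6 had in addition a 551 bp peak wholly inside the gene (25253022 to 25253572) at place 1757, the earliest of its 4.

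The remaining ARR6 peaks lay nearer to other genes than to ARR6. They were 409 and 265 bp wide, lay 1743 and 1329 bp from the low end of ARR6, and both overlapped AT5G62910, a gene that itself overlaps ARR6. The 409 bp peak also overlapped AT5G62900. Counting only peaks whose nearest protein-coding gene was the member left ARR6 with its inner and its end peak. Both members of this pair thus had a peak across the high-coordinate end, while ARR6 alone had a peak inside the gene. Without strand, whether the high end is the same end of both genes was not determined.

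ARR7 and ARR15 differed as presence against absence. These genes act in the shoot meristem, where WUSCHEL represses them, and in the early embryonic root. ARR7 (AT1G19050) had 1 peak, 900 bp wide at place 3108 (chromosome 1, 6579203 to 6580102), and 11.8% of all peaks were wider. It reached 112 bp into the high end of the gene and 788 bp beyond, into a gene-free flank of 2751 bp. ARR15 (AT1G74890) had no peak in its window, and the nearest was 11990 bp away. That peak was 1124 bp wide, at place 1379, and overlapped ORA47 (AT1G74930) and AT1G74940. The surroundings of the pair were alike in peaks, with 92 within 500 kb on either side of ARR7 and 98 around ARR15. The gene-free flanks of ARR15 were shorter, 369 and 907 bp, against 419 and 2751 bp at ARR7. Flank length and peaks did not go together at every member. ARR3, without a peak, had flanks of 4100 and 799 bp, and ARR6, with 4 peaks, had 0 and 502 bp. The part of flank length in the difference between ARR7 and ARR15 was not tested.

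ARR8 and ARR9 were alike by coordinate, each with a peak across the low end and another beyond that end. Whether the low end is the same end of both genes was not determined, for want of strand. ARR8 (AT2G41310) had a 403 bp peak across its low end (chromosome 2, 17221634 to 17222036), with 197 bp inside and 206 bp outside, and a 329 bp peak whose near edge was 1071 bp from the same end. ARR9 (AT3G57040) had a 428 bp peak across its low end (chromosome 3, 21108707 to 21109134), with 76 bp inside and 352 bp outside, and a 384 bp peak whose near edge was 1193 bp from that end. A peak across an end with another 1000 to 1600 bp beyond it was found at ARR8 and ARR9 alone in the family and at 1.46% of all protein-coding genes. Only genes with a peak across an end can show it. Among these it was found at 2 of 6 members and at 400 of 3475 protein-coding genes. This layout, too, was chosen after it was seen. Both genes face a long gene-free flank on that side, 5547 bp at ARR8 and 5339 bp at ARR9.

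The list places of these peaks were 5726 and 6168 at ARR8 and 3715 and 5741 at ARR9, so that only the end peak of ARR9 was among the first 4001. ARR8 alone had a further peak, 1105 bp wide and at place 270 (17218393 to 17219497), the earliest place in the family. It lay 2343 bp from ARR8 and 2101 bp from SSL1 (AT2G41300), the next gene on the low side, and only 658 bp of it fell within the window. The end peak of ARR9 also overlapped the long non-coding RNA gene AT3G08825.

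ARR16 and ARR17 again had a peak at 1 paralogue. ARR17 (AT3G56380), the shortest gene of the family at 1134 bp, had 1 peak, 560 bp wide (chromosome 3, 20906649 to 20907208) and at place 5437. It lay 252 bp from the high end of ARR17 and 146 bp from AT3G56390, so it was nearer to the neighbour. ARR17 was the only marked member without a peak touching the gene itself. A further peak of 988 bp at place 614 lay 4077 bp from ARR17, outside the window, and overlapped the immune regulator gene WRKY70 (AT3G56400). ARR16 (AT2G40670) had no peak within 13316 bp, where the nearest, of 267 bp at place 6438, overlapped AT2G40620. Around ARR16 there were 94 peaks within 500 kb on either side and around ARR17 there were 75.

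By pairs, both paralogues had a peak in 2 of 5 pairs (ARR5 with ARR6, ARR8 with ARR9) and a single one had a peak in the other 3. No pair was without a peak. With 7 of 10 members marked, no fewer than 2 pairs could have had a peak at both, so this count is largely set by the number of marked members. The bases covered by peaks were 0 and 3430 bp for ARR3 and ARR4, 362 and 1780 bp for ARR5 and ARR6, and 900 and 0 bp for ARR7 and ARR15. They were 1390 and 812 bp for ARR8 and ARR9, and 0 and 560 bp for ARR16 and ARR17. With only peaks wider than the median, 0 pairs had a peak at both members, and with the first 4001 peaks 1 pair did.

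In width the 16 peaks were like the list as a whole, with a median of 464 bp against 434 bp for all peaks and a range of 265 to 1963 bp. Their median place in the list was 5334.5, against 4001.5 for all 8002 peaks, and 5 of the 16 were among the first 4001. This difference was not tested. Only the 1963 bp peak of ARR4 and the 1105 bp peak of ARR8 were among the first 500 places and 1000 bp or wider. A peak of that width lay in the window of 2 members, against 5.67% of all protein-coding genes. What the order stands for is not given in the file. Since wide peaks come early (median width 986 bp in the first 500 places and 286 bp in the last 500), width and place are not independent descriptions of a peak.

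**Figure D3:**
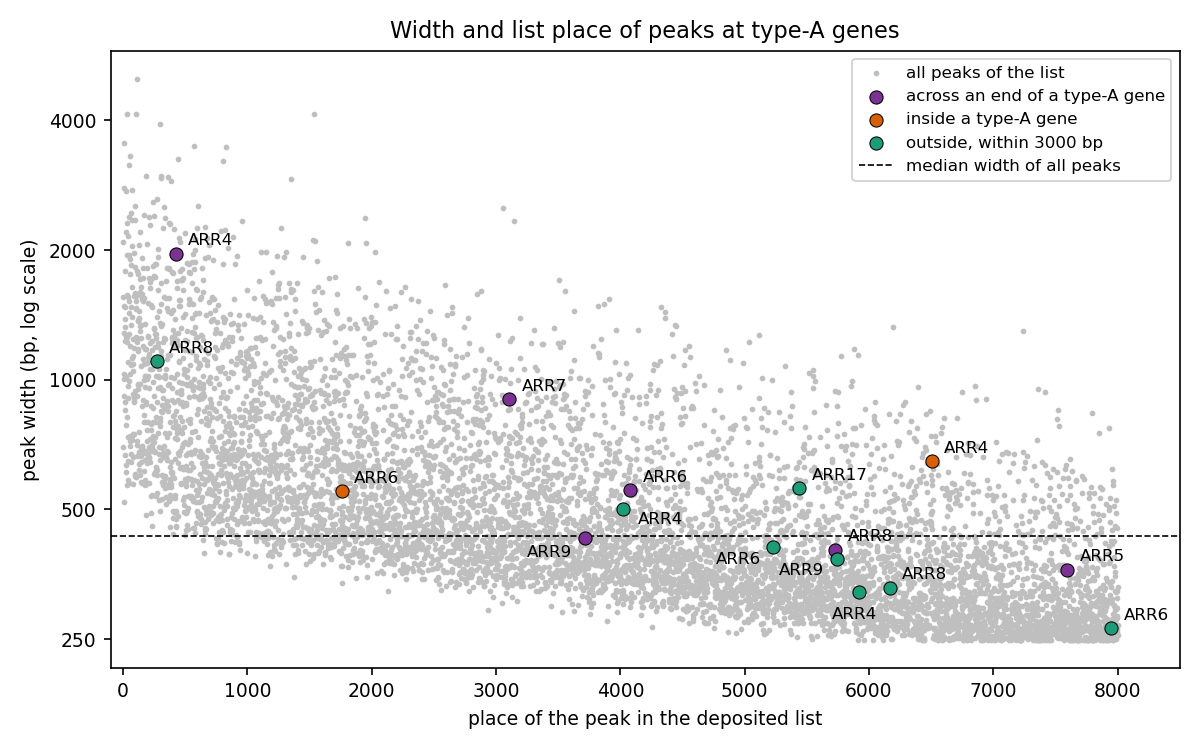
Width (bp, log scale) against place in the deposited list for all 8002 peaks (grey) and the 16 peaks in the windows of type-A genes (coloured by position, named by gene); the dashed line is the median width of 434 bp. The ARR4 peak at place 422 and the ARR8 peak at place 270 stand among the wide, early peaks, and most others lie to the right near the line.

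Peaks could not be given to the members alone. The member was the nearest protein-coding gene for 10 of the 16 peaks, and another gene was nearer for 6. For 12 of the 16 at least 1 other protein-coding gene had the peak in its own window. Leaving out the 6 peaks removed ARR17 from the marked genes, and ARR4, ARR5, ARR6, ARR7, ARR8 and ARR9 kept a peak. The flanks free of protein-coding genes summed to a median of 3154.5 bp per member, against 1881 bp for all protein-coding genes. Genes with a peak in the window had more of it than genes without (medians 2168.5 and 1657.5 bp over all genes). The part of flank length in the family's share was not tested.

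Of 35 other cytokinin pathway genes in 6 lists, 17 had a peak in the window, 48.6% (95% Wilson interval 33.0 to 64.4%), near the 40.5% of all protein-coding genes. The lists hold 2 to 11 genes each, and differences between them were not tested. All 3 receptor genes had peaks (43.9 to 100%), 2 each at AHK2 and AHK4 and 3 at AHK3. The widest, 722 bp at AHK3 (AT1G27320), ran across an end of the gene with 39 bp inside it.

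Of the 6 phosphotransfer genes only AHP1 (AT3G21510) had a peak, 16.7% (3.01 to 56.4%, which includes 40.5%). It was a single one of 1479 bp (chromosome 3, 7579597 to 7581075) that covered 193 bp of the gene. AHP2 to AHP5 and AHP6, a pseudo-phosphotransfer protein that inhibits signalling, had none. The type-B regulators, the transcription factors above the type-A genes, had a peak at 4 of 11, 36.4%, close to the 40.5% of all protein-coding genes. ARR1 (AT3G16857) had 3 peaks, the widest 1174 bp at place 660 with 179 bp inside the gene. ARR10 (AT4G31920) also had 3, the widest of which, 596 bp, overlapped BAT1 (AT4G31910) as well. The single peaks of ARR11 and ARR20 lay 2907 and 821 bp from the gene. That of ARR20 was nearer to GATL7 (AT3G62660). ARR2 and ARR12 had none.

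Of the cytokinin response factors, which are AP2/ERF transcription factors, 4 of 6 had a peak, 66.7% (30.0 to 90.3%), the widest 713 bp at CRF6 (AT3G61630). Of the cytokinin oxidases, which break cytokinin down, 4 of 7 did, 57.1% (25 to 84.2%). Both intervals include the 40.5% of all protein-coding genes. CKX5 (AT1G75450) had a 1269 bp peak at place 626 and CKX4 (AT4G29740) a 1135 bp peak wholly inside the gene. Of the type-C regulators, ARR22 (AT3G04280) had a 254 bp peak that lay 1833 bp from the gene, and ARR24 had none. A peak across an end was found at 7 of the 35 other genes, 20.0%, where 12.7% of all protein-coding genes had one. None of the 35 had more bases covered than the 3430 bp of ARR4, and the highest among them was ARR1 with 1905 bp.

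**Figure D4:**
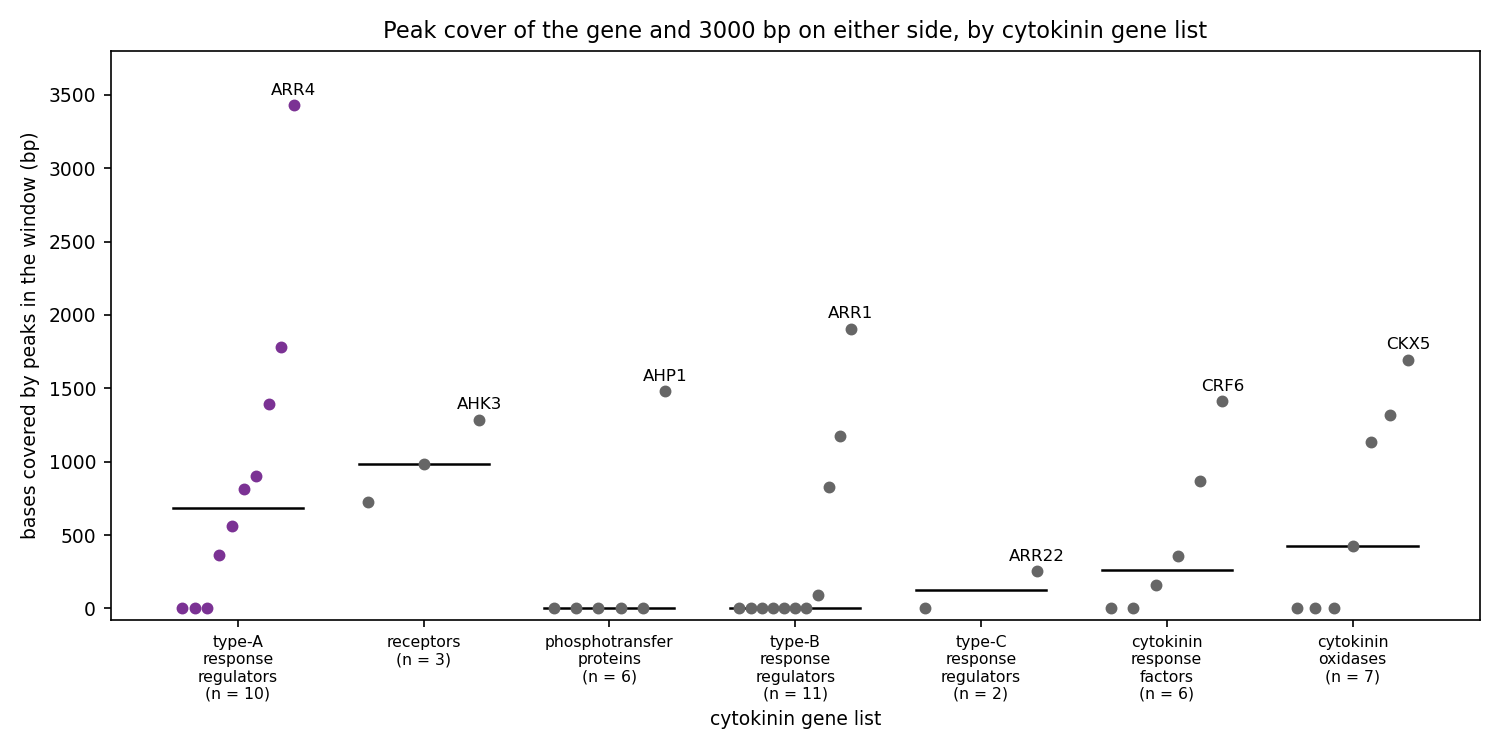
Bases covered by peaks in the gene and 3000 bp on either side (bp) for each gene of the 7 cytokinin gene lists; points are genes, ordered by value within a list, and lines are medians. The type-A genes (purple) run from 0 to 3430 bp with a median of 686 bp, and 5 of 6 phosphotransfer genes and 7 of 11 type-B regulators lie at 0.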

How the data were processed

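ChIP-seq of roots gave 1 GFP antibody and 1 IgG library. Bowtie2, MACS2 and the TAIR10 build are named, per the submitters' processing notes. Not given in the sources used here: versions, thresholds and whether IgG served as control. The list, as deposited, holds chromosome, start and end in base pairs, with no column per sample. Depth is unknown, so a missing peak says only that none was listed. Starts were read as counted from 0 and are printed counted from 1.

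Genes came from a RefSeq table of assembly TAIR10.1, taken to share the nuclear chromosomes: 25.3% of peak midpoints lay inside protein-coding genes, and 62.0 and 62.3% did with peaks shifted by 5000 bp down or up. All 45 gene names used were paired with their locus tags. Without strand or sequence, the planned count near gene starts and the motif search were not run.

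Any overlap with the gene or 3000 bp on either side counted, and shares are set beside those of all protein-coding genes. By rule, all 10 members were named and, of the other lists, genes with a peak of 1000 bp or wider and the gene with the widest peak. Other genes were chosen after their values were seen. Members and lists were chosen with earlier results of these data known. Overlap code was tested on simulated data. Tables were made in pandas 2.3.3 with numpy 2.4.6 under Python 3.11.15, intervals in scipy 1.17.1 and plots in matplotlib 3.10.9.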

Additional observations from a re-analysis of the deposited data

How the results depend on the processing

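The count of 7 type-A genes with a peak ran from 5 to 7 over 10 alternatives, and was 5 (24.2% of all genes) with the peaks wider than the median and 5 (24.6%) with the first 4001 peaks. The number of peaks in the windows, 16, was 10 with flanks of 1000 bp, 8 for the gene body alone, 8 with the wider peaks, 5 with the first 4001 peaks and 10 with peaks nearest to the member. Over the other 5 alternatives it was within 1.5 times. Pairs with a peak at both members numbered 2, but 0 with the wider peaks and 1 with the first 4001. The count of 6 genes with a peak across an end was 3 with the wider and 3 with the first 4001 peaks, and 5 when the midpoint had to lie within 500 bp of an end. The alternatives for the end peaks were chosen after seeing the data, and the wider and the first peaks are fewer by construction. Starts read as counted from 1 changed none of these 4 counts. The other cytokinin genes with a peak, 17, numbered 13 with flanks of 1000 bp and 16 by midpoint. Alternatives for the distance to the gene start were not run, for want of strand. No paired analysis was possible because each antibody had 1 library and the list carries no replicate.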

Other observations

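The genes next to the type-A members were not evenly marked. ZFP5 (AT1G10480), a zinc finger gene that promotes root hair formation and lies beyond the high end of ARR4, had 5 peaks in its window, the widest 2376 bp. AT5G62910, which overlaps ARR6, had 6 peaks, the widest 807 bp. Of all protein-coding genes, 1.65% had 4 or more. The neighbours of ARR7, ARR8, ARR9 and ARR17 had 1 or 2 peaks each. At ARR5 the neighbours EDS1 (AT3G48090), an immune regulator, and EDD1 (AT3G48110) each had 1 peak in their windows. It was the same 362 bp peak that ran across the end of ARR5. NdhO (AT1G74880) and OTP43 (AT1G74900) beside ARR15, and AT2G40660 and GLY1 (AT2G40690) beside ARR16, had 0 peaks in their windows. So had 59.5% of all protein-coding genes. Within 500 kb on either side there were 98 peaks around ARR15 and 94 around ARR16. Beside ARR3, AT1G59930 had 0 and AT1G59950 had 1, of 256 bp. Windows of neighbours overlap those of the members, so these counts are not independent of the members' own.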
